A study of Mus musculus with 16 samples.

Results

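Fully grown mammalian oocytes wait in prophase of the first meiotic division until hormones release them, and 10 genes of this arrest and its release were followed through oocyte growth. The genes were Gpr3, Pde3a, Adcy3, Ccnb1, Ccnb2, Cdk1, Cdc25b, Wee2, Fzr1 and Mos, chosen by name from a list, and all 10 were found among the 25965 genes of the deposited RNA table. All oocytes came from wild-type C57BL/6 mice (C57BL/6Babr in the study's methods) without treatment and were picked by pipette after enzymatic digestion of the ovary, washed to remove somatic cells and sized under a micrometre. Total RNA was sequenced in 2 libraries, A and B, from oocytes of 10–30 μm (postnatal days 5 to 7), 40–45 μm (days 7 to 12), 50–55 μm (days 9 to 14) and 60–65 μm (days 13 to 16) in diameter, so diameter and age of the mice cannot be told apart. A single column of values represents germinal vesicle (GV) oocytes of day 20, and DNA methylation was measured by reduced representation bisulphite sequencing (RRBS), which reads CpG-rich fragments, in 2 libraries each of the 3 larger size classes, and by post-bisulphite adapter tagging (PBAT), which covers the whole genome, in 1 library of 60–65 μm oocytes. Nothing in the labels says that A and B came from different animals, so p-values measure the spread between these libraries, which may be technical.

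Prophase arrest is held by cAMP made inside the oocyte. The receptor GPR3 is active without a hormone and stimulates adenylate cyclase, of which ADCY3 is an isoform, and the phosphodiesterase PDE3A breaks cAMP down once cGMP from the surrounding granulosa cells no longer inhibits it. Protein kinase A, switched on by cAMP, keeps the kinase WEE2 active and the phosphatase CDC25B inactive, so that CDK1 bound to cyclin B1 or B2 stays phosphorylated and idle. FZR1, also called CDH1, directs the anaphase-promoting complex (APC/C) to cyclin B during arrest, and MOS starts the MAP kinase cascade that later holds the egg in metaphase of the second division. Oocytes acquire competence to resume meiosis only in the course of growth.

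Expression is given in RPKM, the reads of a gene divided by its exon length and by the reads of the library, so a value is a share of the library and not an amount per oocyte, and fewer cells of a type and less RNA per cell cannot be told apart. The RPKM values rested on about 99400000 to 198300000 reads a library, and the methylation values on 29942043 to 57215134 cytosine calls a library by RRBS and 98148116 by PBAT. Differences between size classes were fitted by limma to log2(RPKM + 0.1) after scaling between libraries, and "rose" and "fell" stand for an adjusted p under 0.05 over the 10518 genes with at least 0.5 RPKM in 2 libraries. Of the 10 genes 9 passed this minimum, and Adcy3 did not. The 10 oocyte markers examined (Zp1, Zp2, Zp3, Gdf9, Bmp15, Figla, Nobox, Ddx4, Dppa3 and Oosp1) summed to 2617 to 3724 RPKM in every library. The 10 granulosa markers summed to 2.07 to 2.49 RPKM at 10–30 μm, 7.15 to 7.78 RPKM at 60–65 μm and 9.67 RPKM in GV oocytes, with Nr5a2 and Cyp19a1 giving most of the increase. Fshr (0.0436 and 0.0545 to 0.238 and 0.229 RPKM), Inha (0.137 and 0.2004 to 0.542 and 0.529 RPKM), Amh (0.0967 and 0.0907 to 0.229 and 0.189 RPKM) and Kitl (0.192 and 0.1396 to 0.495 and 0.410 RPKM) were also higher at 60–65 than at 10–30 μm, Foxl2 and Fst were at or below 0.0642 and 0.0256 RPKM in every library, and none of the list was at 0. The 6 theca and stroma markers, led by collagens and with Cyp17a1 listed at 0 in both 10–30 μm libraries, summed to 2.57 to 3.70 RPKM at 10–30 μm, 0.469 to 1.69 RPKM in the middle classes and 0.918 to 1.03 RPKM at 60–65 μm, 2 blood and immune markers to at most 0.0846 RPKM, and Mki67 and Top2a of dividing cells to 9.41 to 14.1 RPKM. Within the theca and stroma list the lower sum came from the collagens, as Star (0.0217 and 0.0384 to 0.0648 and 0.107 RPKM) and Cyp17a1 (to 0.0132 and 0.107 RPKM) were higher at 60–65 than at 10–30 μm. The granulosa sum was higher and the collagens lower in the larger classes, beside the changes described here, and their part in them was not tested.

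Over the whole of growth, from 10–30 to 60–65 μm, 6 of the 9 genes rose and 1 fell. Gpr3, Pde3a, Ccnb1, Mos, Wee2 and Ccnb2 rose by 1.39- to 2.45-fold, Cdk1 fell to 0.651 of its earlier level, and neither Cdc25b nor Fzr1 passed the test. Of all genes tested, 31.5% rose and 31.8% fell in the same comparison. The median change of the 9 genes was 0.56 on the log2 scale and that of all genes tested was 0.00.

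**Figure D1:**
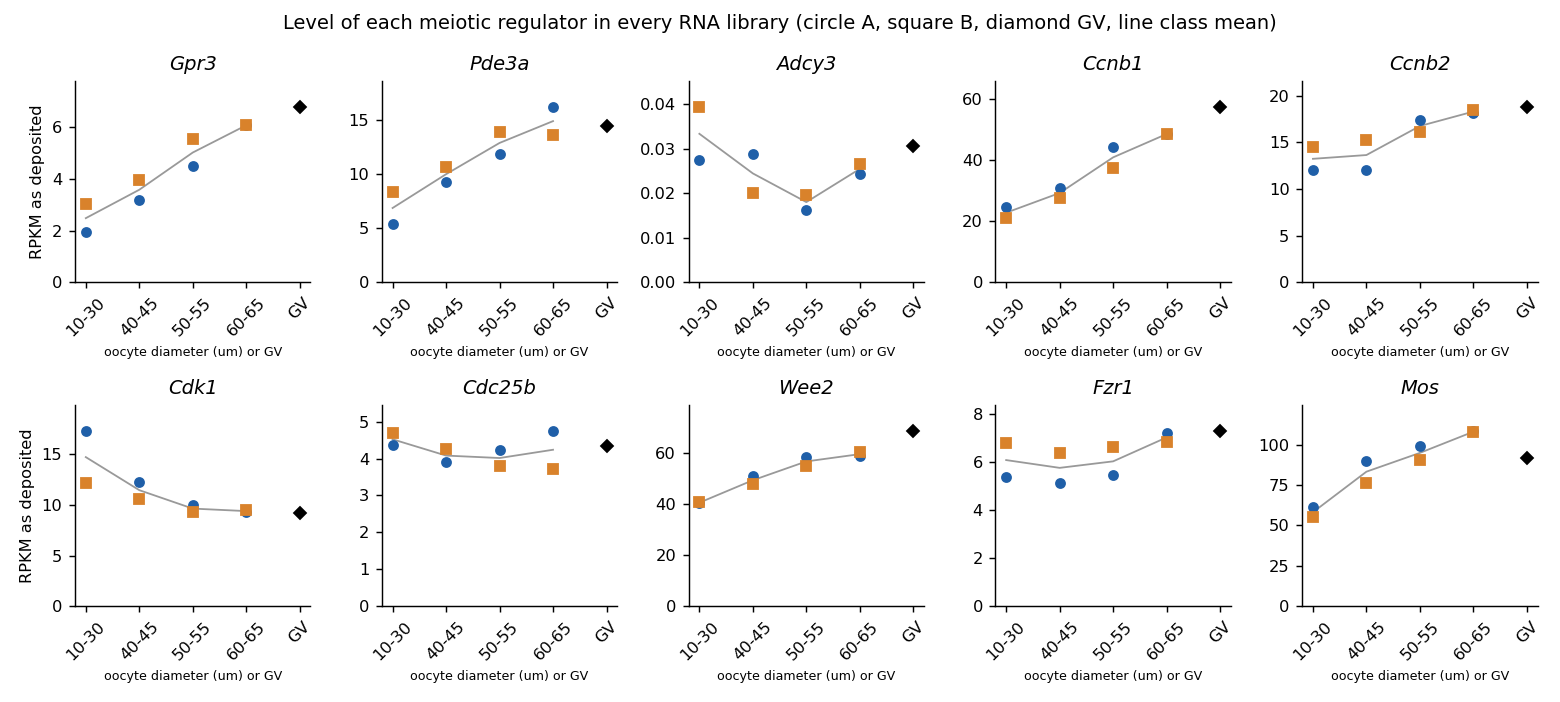
Each panel plots RPKM as deposited (vertical axis, from 0) of 1 gene against oocyte size class in μm and GV, with a circle for library A, a square for library B, a diamond for the GV column and a line through the class means. Ccnb1 climbs from 20.9 and 24.7 RPKM to 48.5 and 48.7 RPKM and Cdk1 declines, while Adcy3 stays at or below 0.0393 RPKM in all 9 columns.

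Promoter sequences from RefSeq (GRCm38.p6, 250 bases before to 50 bases after the annotated start) were found for 8 of the 10 genes, and not for Pde3a and Mos. The promoters of the CDK1 complex genes are shown because their genes diverged in expression. Searched on both strands were CCAAT, the binding motif of NF-Y, and TTTGAA, a sequence of the cell cycle homology region (CHR) of genes active in dividing cells. Their matches are in capitals, with ATTGG being CCAAT on the other strand. The promoters lie at chr13:100786437-100786736, chr9:70421505-70421804 and chr10:69352863-69353162, all on the minus strand and written 5′ to 3′.
Ccnb1: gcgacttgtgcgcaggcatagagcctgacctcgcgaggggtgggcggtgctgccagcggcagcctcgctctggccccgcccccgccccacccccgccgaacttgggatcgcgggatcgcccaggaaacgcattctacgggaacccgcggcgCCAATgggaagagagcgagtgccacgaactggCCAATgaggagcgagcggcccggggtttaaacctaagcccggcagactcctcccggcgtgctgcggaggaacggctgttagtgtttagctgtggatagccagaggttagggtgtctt
Ccnb2: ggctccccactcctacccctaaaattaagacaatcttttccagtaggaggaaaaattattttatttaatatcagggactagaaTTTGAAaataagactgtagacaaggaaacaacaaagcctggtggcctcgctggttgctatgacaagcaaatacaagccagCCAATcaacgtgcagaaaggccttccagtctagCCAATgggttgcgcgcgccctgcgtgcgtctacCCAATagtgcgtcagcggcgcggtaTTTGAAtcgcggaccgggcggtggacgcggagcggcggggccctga
Cdk1: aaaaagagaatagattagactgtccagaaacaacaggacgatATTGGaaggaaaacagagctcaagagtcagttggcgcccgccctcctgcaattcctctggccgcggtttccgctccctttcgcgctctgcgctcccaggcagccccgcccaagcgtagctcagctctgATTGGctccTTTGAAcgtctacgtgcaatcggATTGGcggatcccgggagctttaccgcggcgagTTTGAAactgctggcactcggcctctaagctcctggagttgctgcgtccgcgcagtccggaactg
Ccnb1 held 2 CCAAT matches and no TTTGAA, whereas Ccnb2 and Cdk1 each held 3 CCAAT and 2 TTTGAA matches. Other sequences of the CHR were not searched for, so a promoter without TTTGAA may still hold a CHR. Over 32851 promoters of this length 37.4% held CCAAT and 17.9% held TTTGAA. Of the 9 promoters of the 8 genes 8 held CCAAT, the exception being the second of the entries for Adcy3. The same windows were also searched for the E-box CANNTG, found in those of Adcy3, Cdk1, Cdc25b and Wee2 and in 72.3% of all, and for TGACG, a part of the cAMP response element, found in those of Gpr3, Ccnb2 and Cdc25b and in 20.8% of all. These matches describe letters only, and genes that rose, fell or did not pass the test had CCAAT alike.

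The promoters of Gpr3 and Wee2, both genes that rose, are shown for their contrast in CpG, with CG in capitals (chr4:133212487-133212786, minus strand, and chr6:40442613-40442912, plus strand).
Gpr3: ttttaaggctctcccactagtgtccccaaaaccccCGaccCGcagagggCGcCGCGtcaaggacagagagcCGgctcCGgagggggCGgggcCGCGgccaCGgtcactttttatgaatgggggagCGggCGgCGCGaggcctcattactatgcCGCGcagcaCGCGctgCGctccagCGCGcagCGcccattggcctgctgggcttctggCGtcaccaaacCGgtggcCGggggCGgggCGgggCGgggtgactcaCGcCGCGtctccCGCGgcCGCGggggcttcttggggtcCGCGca
Wee2: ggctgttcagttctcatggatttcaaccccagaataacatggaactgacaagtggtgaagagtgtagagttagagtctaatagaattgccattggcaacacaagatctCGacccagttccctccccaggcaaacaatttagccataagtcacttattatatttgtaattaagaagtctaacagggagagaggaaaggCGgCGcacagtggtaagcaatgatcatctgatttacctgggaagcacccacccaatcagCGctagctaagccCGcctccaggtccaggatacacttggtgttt
Gpr3 had 38 CpG in this window and Wee2 had 5, against a median of 7 and quartiles of 3 and 20 over all promoters. RRBS gave no cytosine with at least 5 reads at the start of Wee2 and 8 to 22 at the start of Gpr3. Mean methylation there was at most 0.561% in all 6 libraries of this assay. Pooled calls of the Gpr3 start gave at most 2.07%, in 40–45 μm library B. With at least 1 read per cytosine its mean was 1.57% in 40–45 μm library A.

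Gpr3 and Pde3a, which act in opposite directions on cAMP, rose side by side. Gpr3 measured 1.94 and 3.02 RPKM in the 10–30 μm libraries A and B, 3.19 and 3.96 RPKM at 40–45 μm, 4.49 and 5.53 RPKM at 50–55 μm, and 6.06 and 6.07 RPKM at 60–65 μm. Its range in each class lay above that of the class before. The rise from 10–30 to 60–65 μm was 2.45-fold (log2 change 1.29, SE 0.18, limma adjusted p = 0.000374, n = 2 libraries a class). Gpr3 lies on chromosome 4 at 133209340 to 133212536 of GRCm38, and 204 of its exon bases are also exon of Cd164l2 on the other strand, which was at 35.1 to 42.2 RPKM. Even coverage of Cd164l2 would add 2.62 to 3.15 RPKM to Gpr3 if strand had been ignored in counting. The libraries were strand-specific, but whether counting used strand is not given in the sources used here. Library A at 10–30 μm had less Gpr3 than that, 1.94 RPKM.

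Pde3a, on chromosome 6, was at 5.41 and 8.37 RPKM at 10–30 μm, 9.31 and 10.7 RPKM at 40–45 μm, 11.9 and 13.9 RPKM at 50–55 μm and 16.2 and 13.7 RPKM at 60–65 μm. The first 3 classes did not overlap, whereas the ranges at 50–55 and 60–65 μm did. Its rise over growth was 2.20-fold (log2 change 1.13, SE 0.18, limma adjusted p = 0.000672). The ratio of Gpr3 to Pde3a RPKM, which no scaling between libraries can alter, ran from 0.343 to 0.444 over the 8 libraries of growing oocytes and was 0.467 in GV oocytes. Over the 8 libraries, with each gene centred on its own mean log2 level, the member nearest to Gpr3 was Pde3a, at a root mean square difference of 0.101. For comparison, the 2 nearest genes of all those tested were Fndc3b (0.0536) and Dusp7 (0.0570) for Gpr3, and Fmnl3 (0.0413) and Bcorl1 (0.0487) for Pde3a.

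Adcy3 was near the bottom of the scale in every library. It had 0.0274 and 0.0393 RPKM at 10–30 μm, 0.0288 and 0.0201 at 40–45 μm, 0.0163 and 0.0197 at 50–55 μm, 0.0244 and 0.0266 at 60–65 μm, and 0.0307 in GV oocytes. These values stand for 12 to 39 reads a library, and both 50–55 μm libraries lay below all the others, while the 60–65 μm values fell within the 40–45 μm range. Adcy3, on chromosome 12, shares 1380 exon bases with Cenpo on the other strand, and even coverage of Cenpo would have put 0.637 to 1.46 RPKM into Adcy3 had strand been ignored, against a highest listed value of 0.0393 RPKM. No test was made, since Adcy3 did not reach the minimum level.

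Adcy1, Adcy5, Adcy6 and Adcy9 made up most of the adenylate cyclase RPKM, and all 4 rose, Adcy9 the least (log2 change 0.31, limma adjusted p = 0.0364), whereas Adcy2, Adcy4 and Adcy7 were as low as Adcy3. Of the 9 genes Adcy1 to Adcy9, Adcy3 made up 0.569 and 0.609% of the summed RPKM at 10–30 μm and 0.127 and 0.143% at 60–65 μm. The sum itself went from 4.81 and 6.45 RPKM at 10–30 μm to 19.2 and 18.6 RPKM at 60–65 μm. Adcy1 had 0.977 and 1.01 RPKM at 10–30 μm, 4.18 and 3.39 RPKM at 40–45 μm, 6.76 and 6.37 RPKM at 50–55 μm and 7.10 and 7.27 RPKM at 60–65 μm. It rose 6.65-fold over growth (log2 change 2.73, SE 0.12, limma adjusted p = 5.84e-06), and was at 5.01 RPKM in GV oocytes, below both 60–65 μm libraries. Adcy6 rose 3.96-fold, from 0.575 and 0.995 to 3.44 and 3.18 RPKM, and Adcy5 rose 3.64-fold, from 0.962 and 1.60 to 4.87 and 4.70 RPKM.

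**Figure D2:**
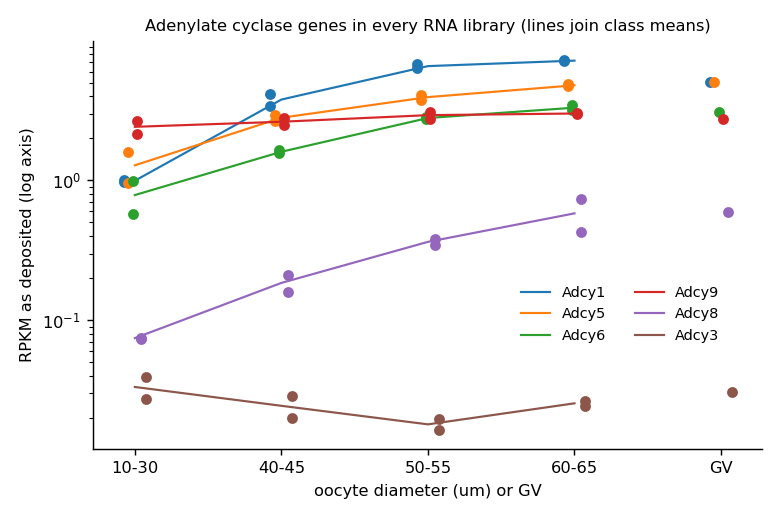
RPKM as deposited on a log axis for 6 adenylate cyclase genes against oocyte size class in μm and GV, with 1 point per library, set slightly apart by gene, and lines through the class means. Adcy1, Adcy5 and Adcy6 climb to between 3.18 and 7.27 RPKM at 60–65 μm, whereas Adcy3 lies between 0.0163 and 0.0393 RPKM throughout.

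In the list of 26 other genes of cAMP and cGMP arrest signalling, 13 passed the minimum level, of which 7 rose, 2 fell and 4 did not pass the test from 10–30 to 60–65 μm, where 31.5% of all genes tested rose and 31.8% fell. The falls were of Prkacb, a catalytic subunit of protein kinase A (log2 change −1.09, SE 0.15, limma adjusted p = 0.000298), and Prkar2b, a regulatory subunit (−0.94, SE 0.11, adjusted p = 0.000131). Without the minimum level the number of falls in this list was 5. Gpr12, the receptor closest to Gpr3, was at or below 0.0578 RPKM in growing oocytes and at 0.20 RPKM in GV oocytes. The median change of the tested genes of the list was 0.31 on the log2 scale.

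The components of the CDK1 complex moved apart. Ccnb1, the gene of cyclin B1 on chromosome 13, had 24.7 and 20.9 RPKM at 10–30 μm, 30.9 and 27.7 RPKM at 40–45 μm, 44.3 and 37.6 RPKM at 50–55 μm and 48.7 and 48.5 RPKM at 60–65 μm. Each class lay above the one before without overlap, and the rise over growth was 2.13-fold (log2 change 1.09, SE 0.14, limma adjusted p = 0.000245). Ccnb2, which encodes cyclin B2 and lies on chromosome 9, changed less. It had 12.02 and 14.46 RPKM at 10–30 μm, 12.1 and 15.2 RPKM at 40–45 μm, 17.4 and 16.1 RPKM at 50–55 μm and 18.2 and 18.4 RPKM at 60–65 μm. Its first 2 classes overlapped, and its rise was 1.39-fold (log2 change 0.47, SE 0.12, limma adjusted p = 0.00829). The annotation also holds the pseudogenes Ccnb1-ps and Ccnb2-ps, and a read that matched both a gene and its pseudogene was kept at 1 place, so the levels of both cyclins carry that uncertainty.

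Cdk1, the catalytic subunit, on chromosome 10, went the other way. Its RPKM was 17.3 and 12.2 at 10–30 μm, 12.3 and 10.6 at 40–45 μm, then 10.0 and 9.26 at 50–55 μm, then 9.33 and 9.46 at 60–65 μm. Library A of the smallest oocytes stood above all other libraries, and the 10–30 and 40–45 μm ranges overlapped. The log2 change over growth was −0.62 (SE 0.18, limma adjusted p = 0.0174). The fall no longer passed the test without 10–30 μm library A (log2 change −0.34, adjusted p = 0.0646), without 60–65 μm library A (−0.59, adjusted p = 0.0892) or without 60–65 μm library B (−0.62, adjusted p = 0.0725). Its value over the other settings tried stayed below 0.

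As a result of these opposite movements the ratio of Ccnb1 to Cdk1 RPKM went from 1.43 and 1.72 at 10–30 μm to 2.51 and 2.61 at 40–45 μm, then 4.42 and 4.06 at 50–55 μm, then 5.22 and 5.12 at 60–65 μm, and was 6.23 in GV oocytes. The 4 size classes did not overlap. The ratio of Ccnb2 to Cdk1 was 0.694 and 1.19 at 10–30 μm and 1.95 in both libraries at 60–65 μm. A permutation of 2 libraries against 2 cannot give a p under 0.05, and these ratios were not tested.

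Of the regulators of CDK1, the inhibitory kinase rose and the activating phosphatase did not pass the test. Wee2, on chromosome 6, was one of the most abundant genes of the list, at 40.4 and 40.6 RPKM at 10–30 μm, 50.8 and 47.8 RPKM at 40–45 μm, 58.6 and 54.7 RPKM at 50–55 μm and 58.8 and 60.3 RPKM at 60–65 μm. Its first 3 classes were in ascending order without overlap, and the ranges at 50–55 and 60–65 μm adjoined as deposited and overlapped after scaling. The rise was 1.47-fold (log2 change 0.56, SE 0.10, limma adjusted p = 0.00144). Cdc25b, on chromosome 2, measured 4.36 and 4.68 RPKM at 10–30 μm, 3.91 and 4.25 RPKM at 40–45 μm, 4.22 and 3.81 RPKM at 50–55 μm and 4.75 and 3.73 RPKM at 60–65 μm. All its classes overlapped with a neighbour except 10–30 with 40–45 μm, and the change over growth was −0.10 with a 95% interval from −0.38 to 0.18 on the log2 scale (limma adjusted p = 0.502). Wee2 had 7.07 to 12.5 times the RPKM of Wee1, the kinase of somatic cells, over the 9 columns.

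Of 24 further genes of CDK1 activation and inhibition 22 were tested, and 3 rose, 6 fell and 13 did not pass the test from 10–30 to 60–65 μm, with a median log2 change of 0.10, beside 31.5% of all genes rising and 31.8% falling. The rises were of Ccnb3, a meiotic cyclin (log2 change 1.75, SE 0.20), Cdc25a, a related phosphatase (0.87, SE 0.12), and Plk1, a kinase of mitotic entry (0.85, SE 0.17), with limma adjusted p-values of 0.000137, 0.000374 and 0.00275. The largest falls were of Chek2, a checkpoint kinase (−1.06, SE 0.14, adjusted p = 0.000257), Ccnh, the cyclin of the CDK-activating kinase (−0.83, SE 0.13, adjusted p = 0.000676), and Cks2, a small CDK1-binding subunit (−0.74, SE 0.13, adjusted p = 0.00130). Without 60–65 μm library A the number of falls was 3.

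Fzr1, on chromosome 10, showed no change that passed the test. It had 5.36 and 6.81 RPKM at 10–30 μm, 5.12 and 6.40 RPKM at 40–45 μm, 5.45 and 6.62 RPKM at 50–55 μm and 7.22 and 6.83 RPKM at 60–65 μm. Library B exceeded library A in the 3 smaller classes, and both libraries at 60–65 μm were above all others. The change over growth was 0.22 with a 95% interval from −0.10 to 0.54 (limma adjusted p = 0.206). All 7 other genes of the APC/C list were tested, of which 6 rose and 1 fell, against 31.5% and 31.8% of all genes. Cdc20, the second activator of the complex, rose (log2 change 0.82, SE 0.10, adjusted p = 0.000205), as did Fbxo43, which encodes the inhibitor EMI2 (0.64, SE 0.11, adjusted p = 0.00134), and Pttg1, the gene of securin (0.51, SE 0.14, adjusted p = 0.0121), and Ube2c, a ubiquitin-conjugating enzyme, fell (−0.77, SE 0.19, adjusted p = 0.00675). The number of rises was 3 without 10–30 μm library B and 2 without 60–65 μm library B, Pttg1 was not called without the first (log2 change 0.32, limma adjusted p = 0.0693) or the second of these (adjusted p = 0.0789), and Ube2c was not called without 60–65 μm library A (adjusted p = 0.0607). The median change of the 7 was 0.45.

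Mos had the highest RPKM of the 10 genes in all 9 columns. On chromosome 4, it measured 61.5 and 55.0 RPKM at 10–30 μm, 90.3 and 76.5 RPKM at 40–45 μm, 99.5 and 90.6 RPKM at 50–55 μm and 109 and 108 RPKM at 60–65 μm. As deposited no classes overlapped, while after scaling 40–45 and 50–55 μm did, and the rise was 1.86-fold (log2 change 0.90, SE 0.13, limma adjusted p = 0.000558). Of the 10 other genes of the MAP kinase cascade 9 were tested, with 2 rises, 3 falls and a median change of −0.01, while 31.5% of all genes rose and 31.8% fell. Mapk3, the kinase ERK1, rose (log2 change 1.39, SE 0.09, limma adjusted p = 8.41e-06). Braf (−0.99, SE 0.14), Araf (−0.91, SE 0.10) and Rps6ka3 (−0.75, SE 0.11) fell, with limma adjusted p-values of 0.000448, 0.000109 and 0.000572. Braf reached the minimum level only in the 10–30 μm libraries, at 0.590 and 0.754 RPKM, and was at most 0.468 RPKM in the larger size classes. A fall was thus built into its entry to the test, and its call is no support. The lists of further genes, like the 10 genes, were drawn up with earlier results of these data known.

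**Figure D3:**
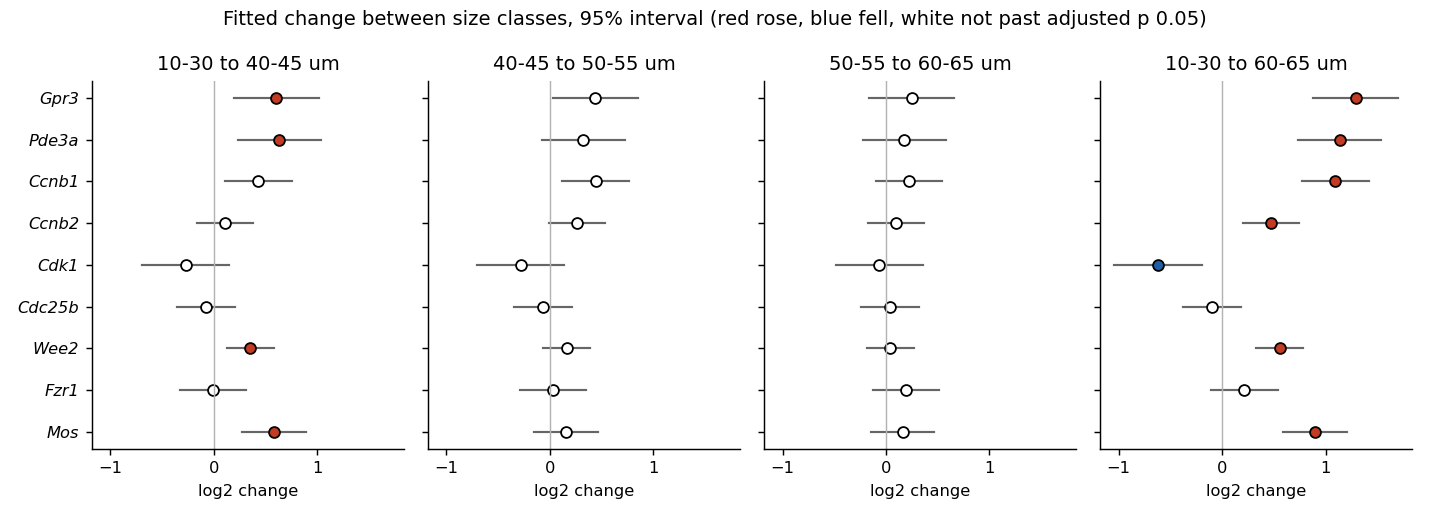
Fitted log2 change (horizontal axis) of the 9 tested genes in 4 comparisons of size classes, with the 95% interval as a line, red for genes that rose, blue for genes that fell and white for genes that did not pass an adjusted p of 0.05. Red points appear in the step from 10–30 to 40–45 μm and over the whole of growth, and no point is filled in the later steps.

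By steps, 4 of the 9 genes rose and 0 fell from 10–30 to 40–45 μm, where 13.2% of all genes tested rose and 9.76% fell. Mos rose by 0.58 on the log2 scale (limma adjusted p = 0.0175), Pde3a by 1.55-fold (adjusted p = 0.0347), Wee2 by 1.28-fold (adjusted p = 0.0368) and Gpr3 by 1.52-fold (adjusted p = 0.0437). Ccnb1 had a fold of 1.35 and an adjusted p of 0.0598. Mos and Wee2 were called under each scaling tried, whereas Gpr3 (limma adjusted p = 0.0909) and Pde3a (adjusted p = 0.0732) were not called without scaling. With no scaling 2 genes were thus called, with median-ratio scaling 5 and with an earlier version of the scaling 5. Of all calls 41.7%, 63.2% and 68.9% were then rises, against 57.5% with the scaling used. When a single library was left out 0 to 2 genes were called, with 0 without 40–45 μm library A, and edgeR's quasi-likelihood test on reads recovered from the RPKM called 3 genes, leaving out Gpr3 (adjusted p = 0.0511). From 40–45 to 50–55 μm 5.27% of all genes rose and 3.45% fell, shares that came to 0 without 40–45 μm library B or 50–55 μm library A. In this step limma called 0 of the 9 genes, with 2 (Ccnb1 and Gpr3) at an unadjusted p under 0.05 and 0 called by edgeR. With A and B as a replicate block limma called these 2 (adjusted p = 0.0239 and 0.0400), though the letters do not pair all libraries. From 50–55 to 60–65 μm 0% of all genes rose and 0% fell at an adjusted p under 0.05, by limma and by edgeR, although 756 genes had higher and 685 lower values at an unadjusted p under 0.05, and 0 of these were among the 9. The changes of all 9 genes in this last step lay between −0.06 and 0.25 on the log2 scale. Whether the steps differ from each other was not tested.

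In GV oocytes, for which there is no replicate, 5 of the 9 tested genes had a scaled value above both 60–65 μm libraries and 1 a value below both. Among all 10518 genes 41.2% were above and 39.6% below. These genes were Gpr3, Ccnb1, Ccnb2, Wee2 and Fzr1, with 6.76, 57.3, 18.8, 68.6 and 7.30 RPKM in the GV column. The gene below was Mos, at 91.9 RPKM and 0.873 of the 60–65 μm level. Pde3a, Cdk1 and Cdc25b had scaled GV values within the 60–65 μm range, at 14.5, 9.20 and 4.35 RPKM as deposited, and Adcy3, which is outside the tested set, was above both libraries. Without scaling Cdk1 joined Mos below both libraries.

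Methylation of the gene body, the whole span of the gene in the RNA table, differed widely among the 10 genes in 60–65 μm oocytes. In the PBAT library the mean over CpG cytosines with at least 5 reads was 47.0% in Cdc25b (116 cytosines), 42.2% in Pde3a (519 cytosines), 37.5% in Fzr1 (220 cytosines), 27.3% in Wee2 (20 cytosines), 26.9% in Ccnb2 (107 cytosines) and 23.1% in Cdk1 (114 cytosines). It was 12.6% in Adcy3 (582 cytosines), 9.55% in Ccnb1 (51 cytosines), 7.22% in Gpr3 (107 cytosines) and 2.62% in Mos (31 cytosines). Pooled over the calls of the same cytosines the extremes were 44.8% (95% Wilson interval 41.5 to 48.1%, 862 calls) in Cdc25b and 2.43% (1.04 to 5.55%, 206 calls) in Mos, where the intervals cover counting error only. The median gene body was at 15.2% over 22124 genes and at 30.8% over the 8278 genes with at least 1 RPKM at 60–65 μm. Mos, Ccnb1 and Gpr3, at 108, 48.6 and 6.07 RPKM, lay under the lower quartile of these expressed genes of 17.0%. No limit on gene length was set, and a body includes the 500 bases after its start. Start windows, which overlap the bodies, held 47 cytosines in Ccnb1 and 97 in Gpr3, beside 51 and 107 in the bodies. Mos spans only 3870657 to 3872105 of chromosome 4, and its start window held 7 beside 31. Whether these bodies were low away from the start was not tested. The paper left short genes out of a gene body comparison, describing them as largely unmethylated. With at least 1 read per cytosine Ccnb1 came to 15.6%, Ccnb2 to 35.0%, Cdk1 to 27.4% and Pde3a to 52.8%. With at least 10 reads Adcy3 came to 5.57% over 110 cytosines, Ccnb2 to 18.8% over 23 and Fzr1 to 47.5% over 33.

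Gene starts, 500 bases on each side of the 5′ end in the RNA table, were low in methylation in the same library. The range over 9 of the genes was 0.753% (Ccnb1) to 5.39% (Fzr1), and Mos had 11.6% over 7 cytosines. Single values moved with the read minimum. With at least 1 read per cytosine the start of Ccnb1 was at 3.43% and that of Mos at 6.53% over 29 cytosines. With at least 10 reads the start of Fzr1 was at 0% and that of Gpr3 at 9.85%, each over 6 cytosines. Over 17588 genes the median was 3.46%. With 46 pooled calls Mos had a Wilson interval from 4.73 to 23.04%.

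Through growth, RRBS could follow the gene bodies of 8 genes at the cytosines it read, with Ccnb1 and Wee2 having too few. In Gpr3 these were only 5 to 11 a library. In Ccnb2 they were 22 to 27, beside 20 to 25 in its start window, which overlaps the body. In 60–65 μm library B 44 of 488 body calls and 1 of 321 start calls of Ccnb2 were methylated. Its body values may therefore rest on few cytosines away from the start. In Cdk1 the mean was 2.67 and 4.54% at 40–45 μm, then 4.73 and 8.77% at 50–55 μm, then 13.3 and 13.6% at 60–65 μm. In Fzr1 it was 0.869 and 0.151%, then 4.30 and 6.21%, then 10.4 and 8.64%. In both genes the 3 classes were in ascending order without overlap at this minimum of 5 reads per cytosine. With at least 1 read the later classes overlapped, at 17.6 and 7.27% against 12.9 and 10.7% in Cdk1 and 18.4 and 4.35% against 11.1 and 11.8% in Fzr1. Pde3a had 0.639 and 0.0997%, then 3.16 and 11.1%, then 6.92 and 12.4%, with overlap of the later classes. Between 40–45 and 60–65 μm both later libraries exceeded both earlier ones in 6 of the 8 genes, namely Cdc25b, Pde3a, Ccnb2, Cdk1, Fzr1 and Adcy3, and in 53.6% of the 14876 genes measured. With at least 1 read per cytosine this held for 3 of the 8, Ccnb2, Cdk1 and Fzr1, and not for Cdc25b, Pde3a and Adcy3. The share of all genes was not computed at that minimum, so this count has no background beside it. At 5 reads per cytosine, both later libraries exceeded both earlier ones from 40–45 to 50–55 μm in 3 of 8 genes and 46.6% of all. From 50–55 to 60–65 μm they did so in 4 of 8 and 38.7%. Libraries read partly different cytosines of a gene (38 to 72 in Pde3a). With calls pooled, Pde3a had 4.12 and 2.26% at 50–55 μm and 6.14 and 6.43% at 60–65 μm, without overlap. At 5 reads per cytosine Gpr3 stayed at or below 2.14% in all 6 libraries. Mos did so in 5, with 12.96% over 9 cytosines in 50–55 μm library B, where its pooled calls gave 4.36%. With at least 1 read Gpr3 was at 14.8% over 34 cytosines in 50–55 μm library A, where its pooled calls gave 2.03%. The gene starts measured by RRBS were at most 5.44%, in Cdk1 in 40–45 μm library B, where the pooled calls gave 1.10%. The counts of genes in ascending order were added after values had been seen, and with 2 libraries against 2 a permutation test of a single gene cannot reach a p of 0.05, so none was made.

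**Figure D4:**
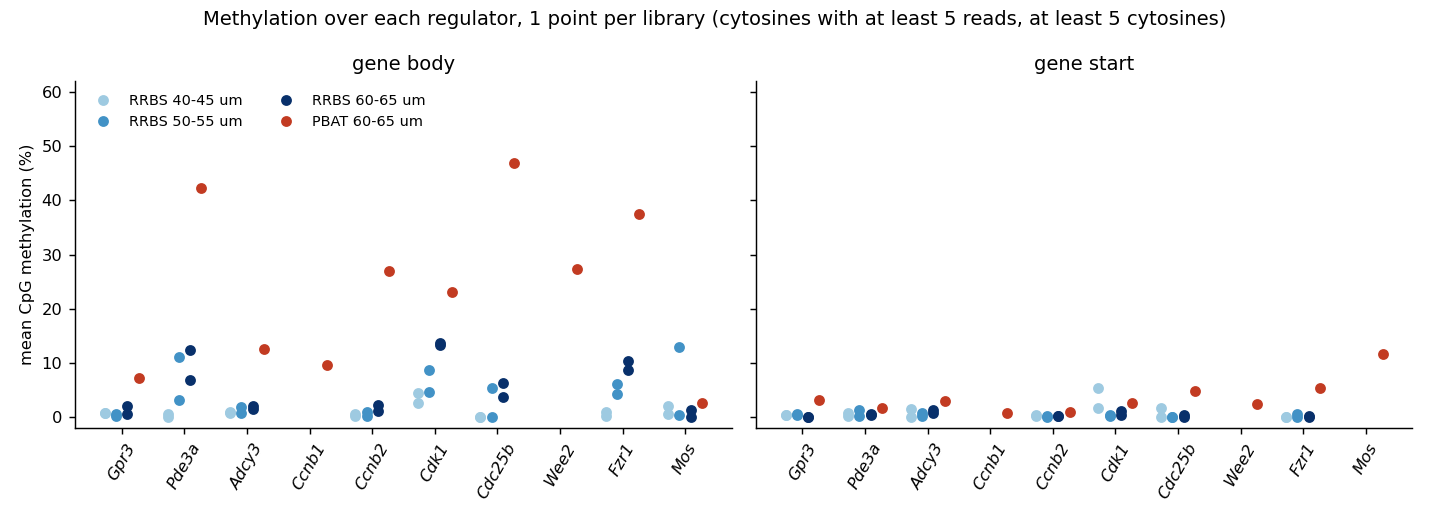
Mean CpG methylation in percent (vertical axis) over the gene body (left) and gene start (right) of the 10 genes, with 1 point per library, blue shades for RRBS by size class and red for PBAT, and no point where fewer than 5 cytosines had at least 5 reads. Gene bodies by PBAT run from 2.62% in Mos to 47.0% in Cdc25b, while gene starts lie at or below 11.6%.

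With at least 5 reads per cytosine, RRBS read fewer gene body cytosines of each gene than PBAT. The 2 assays were not compared at shared cytosines, so their levels are given apart. At 60–65 μm Cdc25b was at 6.25 and 3.803% over 9 cytosines by RRBS and at 47.0% over 116 by PBAT. Its pooled RRBS calls gave 1.54 and 1.46%, and the mean of its cytosines with at least 10 reads was 0.893 and 0.446%, the latter over 2 cytosines. For the remaining genes the nearest in expression over the 8 libraries, by the same root mean square difference, were Ldhc (0.0565) and Itpr2 (0.0619) for Ccnb1, Mknk1 (0.0439) and Gm17296 (0.0558) for Ccnb2, and D6Wsu163e (0.0402) and Cox19 (0.0467) for Cdk1. They were Wdfy2 (0.0543) and Lhx8 (0.0543) for Cdc25b, Irf1 (0.0326) and Tmem39a (0.0334) for Wee2, Klc2 (0.0455) and Ppp1r15a (0.0491) for Fzr1, and Tdrd12 (0.0325) and Lmo7 (0.0471) for Mos.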

How the data were processed

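RNA reads were trimmed and mapped by the authors with TopHat (option -g 1, which keeps 1 place for a read) to GRCm38, and the deposited RNA table holds RPKM for reference genes; the libraries were strand-specific and the study's methods name SeqMonk for analysis of the RNA data and Cufflinks for transcripts, but which of them made this table, and whether reads were counted by strand, is not given in the sources used here. The submitters' processing notes name Trim Galore 0.2.8 and 0.3.5, TopHat2 2.0.9 and Bismark 0.10.0 and 0.14.0. For RRBS and PBAT the authors deposited the percent methylated and the count of methylated and unmethylated calls per CpG cytosine; duplicates were removed for PBAT.

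The 10 genes and all lists were chosen with earlier results of these data known. For 20276 of 20278 genes with a value above 0, RPKM times exon length gave whole reads (tolerance at most 0.1 read). Libraries were scaled by a trimmed mean of log ratios (30% of ratios and 5% of levels left out at each end; factors 0.950 to 1.05). Which genes this mean ran over had not been settled beforehand: a first version over all genes above 0 called 5 of the genes as rising from 10–30 to 40–45 μm (Ccnb1 adjusted p = 0.0309), and after its result was seen it was replaced by the genes past the 0.5 RPKM minimum, which called 4 (Ccnb1 adjusted p = 0.0598). limma 3.58.1 (R 4.3.3, variance trend, Benjamini-Hochberg over all genes) was fitted to the 8 libraries with a mean per class and tested on simulated data. Named from each list were up to 3 rises and 3 falls of largest size, and for each gene the 2 nearest in pattern; a named gene that is withheld is not reported here. Alternatives were pseudocounts of 0.01 and 1, no minimum, no or median-ratio scaling, no trend, A and B as a block, each library left out, edgeR 4.0.16 on the recovered reads (10516 genes, chosen after seeing the data), the first scaling, and 1 or 10 reads per cytosine or pooled calls. The ratios, motifs, the 25% methylation level and the split of genes at 1 RPKM were added in the course of the work. Methylation, with at least 5 cytosines of 5 reads, was not tested. Columns of values without a sample numbered 0. Python 3.11.15 was used.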

Additional observations from a re-analysis of the deposited data

How the results depend on the processing

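Over growth as a whole the 6 rises held in all 17 alternatives, and the fall of Cdk1 was lost only when 1 of 3 libraries was left out (0 to 1 falls). The other calls moved more. From 10–30 to 40–45 μm the 4 rises became 1 without the minimum level, 2 without scaling, 0 to 2 when a library was left out and 5 with the scaling first used, which was replaced after its result had been seen and under which the median log2 change of all genes was 0.0576; falls were 0 to 1. From 40–45 to 50–55 μm the 0 rises became 1 without scaling and 0 to 1 with a library left out. Median-ratio scaling gave 5 rises from 10–30 to 40–45 μm (limma, Ccnb1 adjusted p = 0.0461). With A and B as a replicate block there were 5 rises from 10–30 to 40–45 μm and 2 from 40–45 to 50–55 μm (limma, Ccnb1 adjusted p = 0.0239 and Gpr3 adjusted p = 0.0400). Differences of A from B correlated at 0.589 to 0.669 across genes among the 3 smaller classes and at −0.227, −0.0256 and 0.113 with 60–65 μm, so the letters do not pair all libraries. The cause was not tested. Over all genes, the 554 rises and 363 falls from 40–45 to 50–55 μm became 0 and 0 without 40–45 μm library B or 50–55 μm library A, 858 and 766 without 10–30 μm library A and 1009 and 868 with the block, and falls were 136 without the minimum level; the 1390 and 1027 from 10–30 to 40–45 μm became 571 and 290 without 40–45 μm library A and 865 and 319 without 10–30 μm library A. From 50–55 to 60–65 μm the block gave 163 and 77 and a pseudocount of 1 gave 8 rises. Among GV values 1 gene below became 2 without scaling. With at least 10 reads per cytosine 3 gene bodies (of 8 measured) rather than 5 (of 10) were at 25% or more, a level met by 36.5% of all gene bodies and 61.4% of those of genes at 1 RPKM or more. Of the uncalled changes, signs turned for Fzr1 from 10–30 to 40–45 μm (0.02508 with median-ratio scaling, 0.0555 with the first scaling) and, with a library left out, for Fzr1 (−0.137 to 0.121, then −0.100 to 0.168 from 40–45 to 50–55 μm), Ccnb2 (−0.0304 to 0.247) and Cdk1 (−0.588 to 0.0221) from 10–30 to 40–45 μm, Cdc25b (−0.134 to 0.0230 from 40–45 to 50–55 μm, −0.130 to 0.202 from 50–55 to 60–65 μm, −0.249 to 0.0820 over growth) and Wee2 (−0.0128 to 0.0907 from 50–55 to 60–65 μm). With 2 libraries a class, a library left alone was assumed to vary like the others.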
